A study of Homo sapiens with 18 samples.

Results

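The genes of the 3 TGF-β ligands (TGFB1, TGFB2 and TGFB3), of their 3 receptors (TGFBR1, TGFBR2 and TGFBR3) and of 4 SMAD proteins (SMAD2, SMAD3, SMAD4 and SMAD7) were followed in 2 uveal melanoma cell lines treated with inhibitors of the histone methyltransferase EHMT2, also called G9a. These 10 genes were chosen by exact symbol, and all 10 were found among the 26475 gene symbols of the table of expected counts. The lines were Mel92.1 and MP41, both grown from human melanomas of the pigmented layer of the eye. Each was kept for 48 h in the solvent DMSO, in UNC0642 at 1 μM or in A366 at 1 μM. Each of the 6 groups had 3 libraries, which the submitters describe as biological replicates, so that there were 18 libraries in all. No deletion or transgene is named for either line, each line is a single culture model grown without immune or stromal cells, and p-values measure the spread between its cultures. The study asked whether EHMT2 acts on natural killer cells through TGF-β1, so TGFB1 is the member of direct interest, and the other 9 genes are set beside it here.

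TGF-β ligands are secreted in a latent form, held by their own propeptide and by latent TGF-β binding proteins, and act only after release. An active ligand binds the receptor TGFBR2, which recruits and phosphorylates TGFBR1, while TGFBR3, also called betaglycan, presents ligand and has no kinase of its own. TGFBR1 phosphorylates SMAD2 and SMAD3, which enter the nucleus with SMAD4 and change transcription. SMAD7 is an inhibitory SMAD that targets the active receptor, and its gene is itself switched on by the pathway. In melanocytes TGF-β is known as a brake on growth, and tumour cells also release it as a signal that restrains lymphocytes.

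Before any result was drawn, 4 libraries were found to go against their labels, those labelled A366 replicates 2 and 3 in either line. Over 33 genes found in MP41 with DMSO and nearly absent from Mel92.1, replicates 2 and 3 labelled Mel92.1 A366 had a summed level of 110.4% and 112% of the MP41 level with DMSO, against 0.0592% in the library labelled Mel92.1 A366 replicate 1. Over 27 genes of Mel92.1, replicates 2 and 3 labelled MP41 A366 were at 109% and 96.5% of the Mel92.1 level. Values listed per library in the supplementary gene lists matched 14 libraries under their labelled line and 4 under the other. The values below use the placement that fits all 18, in which these 4 libraries change line and keep their treatment and replicate number. Results of the members that rest on them are given also as labelled and without them, and counts over gene lists also as labelled.

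Total counts ran from 23601160 to 62941453 per library, and between 3.31% and 32.8% of them fell on 4 ribosomal RNA genes. All 7 melanocyte markers examined, among them PMEL and MLANA, were above 1 CPM in every group, with a summed level of 15000.0 to 24420.0 CPM (CPM, counts scaled to the library total with TMM factors over the 18 libraries). Of 5 leukocyte markers only NCAM1, and of 5 fibroblast markers only COL1A1 and LUM, averaged above 1 CPM in any group, while PTPRC, CD3E, COL1A2 and DCN stayed below it.

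The 2 lines differed widely in these genes before any inhibitor was added. With DMSO, MP41 held more TGFB3, SMAD3, TGFBR1 and TGFBR3 than Mel92.1, and Mel92.1 held more SMAD4 and SMAD2. The level of TGFB1 overlapped between the lines. By the quasi-likelihood test of edgeR, with p adjusted by Benjamini-Hochberg over 15799 genes, 8 of the 10 members passed the threshold of 0.05, 6 lower and 2 higher in Mel92.1. Of all genes tested, 69.4% passed it, 34.8% lower and 34.5% higher in Mel92.1, so 8 of 10 is near the share of the whole table.

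Among the ligand genes, TGFB3 differed most. Its level with DMSO was 2.44, 2.74 and 2.16 CPM in replicates 1 to 3 of Mel92.1 and 16.3, 15.8 and 15.6 CPM in those of MP41. Every MP41 library was far above every Mel92.1 library, also with the inhibitors, where the levels were 2.28 to 3.89 CPM in Mel92.1 and 12.2 to 16.0 CPM in MP41. The log2 difference, Mel92.1 minus MP41 with DMSO, was -2.70 (SE 0.177, adjusted p = 3.44e-10). TGFB1 was at 33.7, 40.2 and 39.5 CPM in Mel92.1 and at 42.2, 38.5 and 37.6 CPM in MP41. These libraries overlapped, and the log2 difference was -0.06 with a 95% interval from -0.26 to 0.14 (adjusted p = 0.568). Corrected by an offset for GC content and length of each gene, it was -0.82 (adjusted p = 2.30e-08). TGFB2 was barely detected in either line. Its largest count in any library was 44, and the Mel92.1 library with UNC0642 replicate 1 had a count of 0, which allows up to 0.182 CPM. It was at 0.860, 0.452 and 0.335 CPM with DMSO in Mel92.1 and at 0.108, 0.418 and 0.0435 CPM in MP41, values that overlapped. The log2 difference of TGFB2 between the lines was 1.54 and did not pass (95% interval -0.21 to 3.29, adjusted p = 0.107). Its call turned on the setting. Over all genes limma voom called 13140 of 15799 in this comparison, and edgeR 10962. TGFB2 passed with the GC and length offset, at 1.88 (adjusted p = 0.0483), with limma voom, at 1.99 (adjusted p = 0.00556), without MP41 DMSO replicate 2, at 2.82 (adjusted p = 0.0191), and without Mel92.1 UNC0642 replicate 1 (adjusted p = 0.0451).

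Of the receptor genes, TGFBR1, which codes for the type I receptor kinase, was at 98.9, 81.9 and 79.5 CPM in Mel92.1 and at 253, 258 and 258 CPM in MP41 with DMSO. The lowest MP41 library was above the highest Mel92.1 library by more than the whole spread of either group. The log2 difference was -1.56 (SE 0.103, adjusted p = 3.66e-10). The co-receptor gene TGFBR3 was at 13.5, 9.82 and 9.56 CPM in Mel92.1 and at 30.5, 28.3 and 28.9 CPM in MP41, a log2 difference of -1.41 (SE 0.211, adjusted p = 1.18e-05). TGFBR2, which codes for the type II receptor, differed less. Its level was 19.2, 16.7 and 14.9 CPM in Mel92.1 and 20.3, 23.6 and 20.9 CPM in MP41. These groups did not overlap but lay close together, with a log2 difference of -0.35 (SE 0.126, adjusted p = 0.0207) that no longer passed as labelled (adjusted p = 0.0689) or in 3 of 18 fits without 1 library, those without Mel92.1 DMSO replicate 2, Mel92.1 DMSO replicate 3 or MP41 DMSO replicate 2 (adjusted p up to 0.111).

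The SMAD genes differed in both directions between the lines. SMAD3 was at 10.2, 8.89 and 7.37 CPM in Mel92.1 and at 27.2, 26.8 and 26.6 CPM in MP41 (log2 difference -1.61, SE 0.131, adjusted p = 6.25e-09). SMAD2 was at 79.6, 79.4 and 73.9 CPM in Mel92.1 and at 60.4, 61.7 and 59.2 CPM in MP41 (log2 difference 0.36, SE 0.0624, adjusted p = 5.85e-05). The genes of the 2 SMADs that the receptor phosphorylates thus lay on opposite sides of 0. SMAD4, the common partner, was at 72.9, 68.3 and 63.5 CPM in Mel92.1 and at 44.9, 43.7 and 48.0 CPM in MP41 (log2 difference 0.58, SE 0.0869, adjusted p = 1.16e-05). The inhibitory SMAD7 was at 7.57, 8.54 and 7.45 CPM in Mel92.1 and at 9.54, 10.1 and 10.8 CPM in MP41. The groups did not overlap, but the difference was small (log2 difference -0.37, SE 0.148, adjusted p = 0.0345). Its call was lost as labelled (adjusted p = 0.242), without the 4 exchanged libraries (adjusted p = 0.103) and in 10 of 18 fits without 1 library, among them each MP41 library with DMSO or A366 and Mel92.1 DMSO replicates 1 and 3 (adjusted p up to 0.116).

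Levels of different genes were set beside each other only as CPM per kilobase of transcript. With the longest annotated transcript as the length, the ligand genes ranked TGFB1, TGFB3 and TGFB2 in both lines with DMSO. The levels per kilobase were 13.7 ± 1.29, 0.903 ± 0.106 and 0.109 ± 0.0545 CPM in Mel92.1 and 14.2 ± 0.877, 5.88 ± 0.130 and 0.0376 ± 0.0396 CPM in MP41 (SD, n = 3). That order held with the median transcript length too. In MP41 TGFBR1 had the highest level per kilobase of the 10 genes under either length, at 39.4 ± 0.415 CPM with the longest transcript. In Mel92.1, TGFB1 and TGFBR1 at 13.7 ± 1.29 and 13.3 ± 1.62 CPM per kilobase did not differ beyond their spread. The order of SMAD2 and SMAD4 in MP41 turned with the length chosen, since the longest annotated transcript of SMAD2 has 34.5 kb and its median transcript 0.935 kb, so it is not given.

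**Figure D1:**
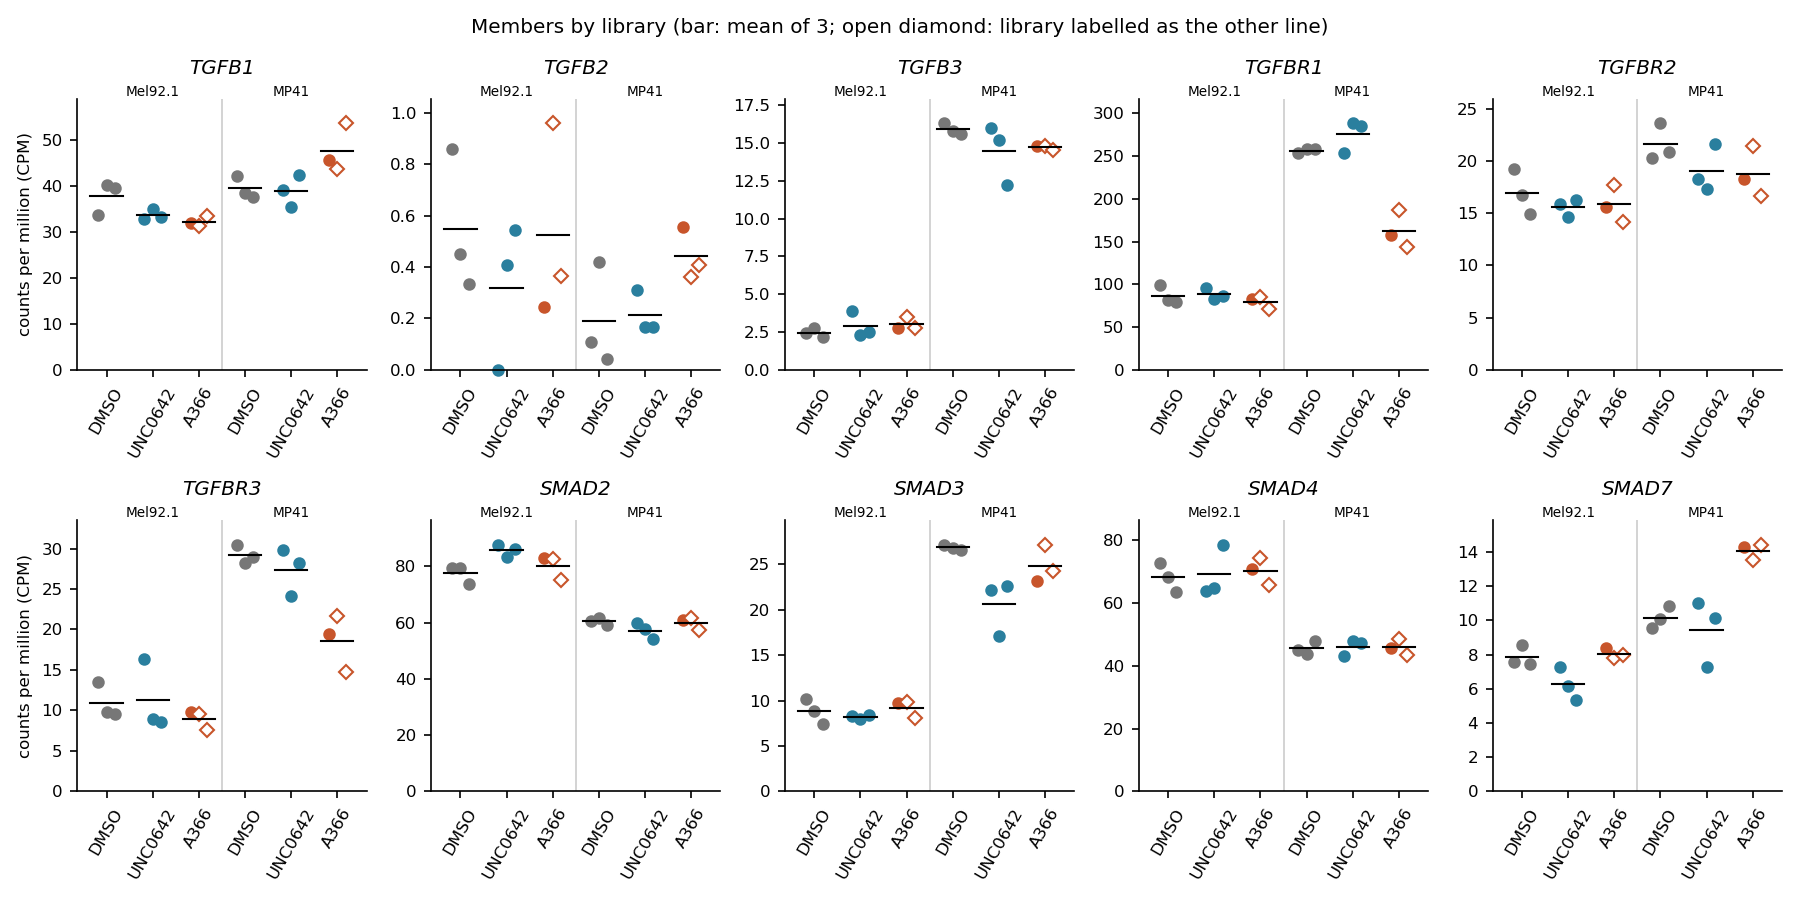
Level of each of the 10 genes in CPM (y axes, linear, starting at 0) in the 18 libraries by line and treatment, with the mean of each group as a bar and open diamonds for the 4 libraries labelled as the other line. TGFB3, TGFBR1, TGFBR3 and SMAD3 sit higher in each MP41 library with DMSO than in each Mel92.1 library with DMSO, and TGFBR1 in MP41 goes from 253 to 258 CPM with DMSO to 143 to 187 CPM with A366.

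**Figure D2:**
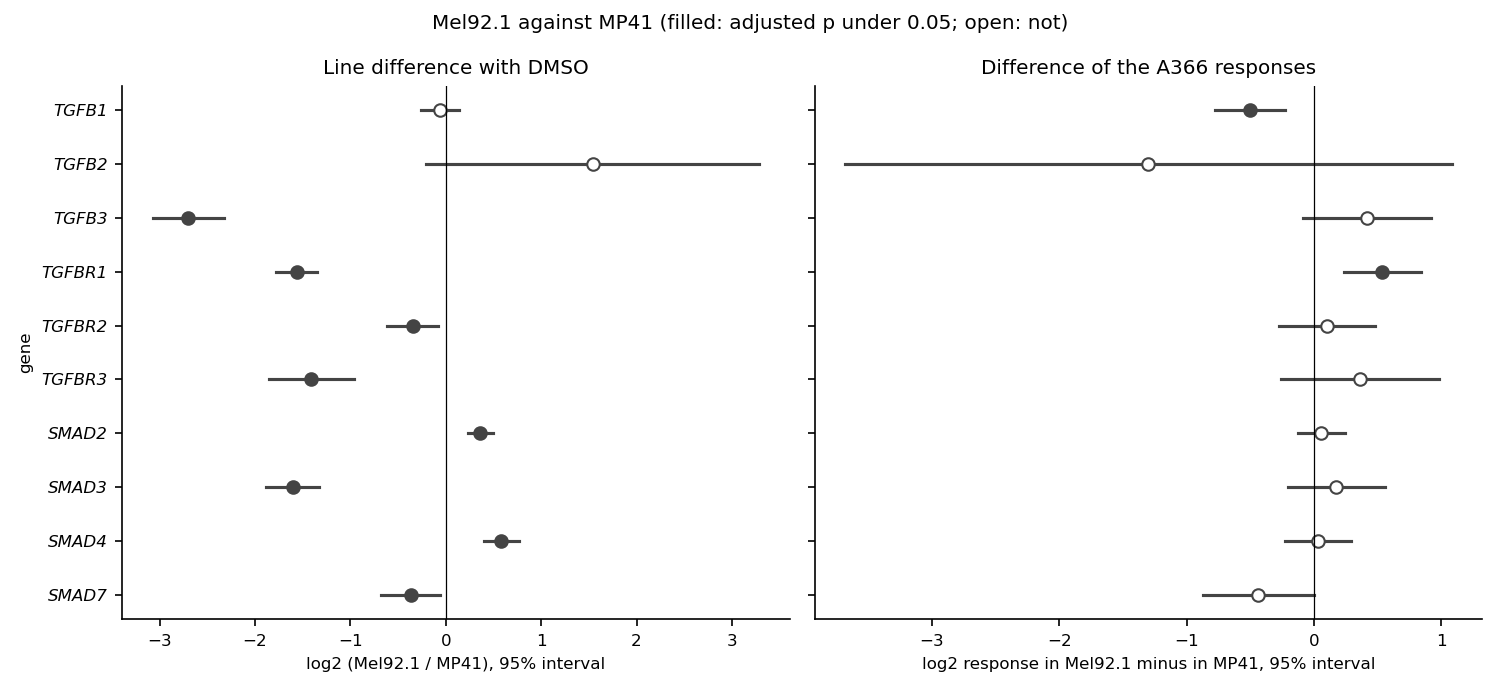
Left, log2 difference between Mel92.1 and MP41 with DMSO for each gene, and right, log2 response to A366 in Mel92.1 minus that in MP41, each with its 95% interval, filled where the adjusted p was under 0.05. On the left TGFB3 stands at -2.70 and SMAD4 at 0.58, and on the right TGFB1 at -0.50 and TGFBR1 at 0.54 are filled.

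UNC0642 called none of the 10 genes in either line. In Mel92.1 0 of 10 members passed an adjusted p of 0.05 by edgeR, with 0 at an unadjusted p under 0.05, and the DESeq2 Wald test also called 0. Of all 14528 genes tested there, 0.688% passed. In MP41 0 of 10 passed, with 1 at an unadjusted p under 0.05 and 0 by DESeq2, where 0.241% of 14956 genes passed.

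The member with an unadjusted p under 0.05 was SMAD3 in MP41. It was at 27.2, 26.8 and 26.6 CPM with DMSO and at 22.1, 17.1 and 22.7 CPM with UNC0642. All 3 libraries with UNC0642 were below all 3 with DMSO, and replicate 2 was the lowest. The log2 fold change was -0.39 (SE 0.106, adjusted p = 0.247 by edgeR), and it lay between -0.46 and -0.26 under 23 alternatives. In Mel92.1 SMAD3 was at 10.2, 8.89 and 7.37 CPM with DMSO and 8.32, 7.96 and 8.40 CPM with UNC0642, groups that overlapped. The difference between the lines in the response of SMAD3 to UNC0642 was 0.28 (95% interval -0.11 to 0.66, adjusted p = 0.690). In that comparison of responses 0 of 10 members passed, and 0 by DESeq2, where 0.601% of all genes passed. The 1 member at an unadjusted p under 0.05 was SMAD2, at 0.22 (95% interval 0.04 to 0.41, adjusted p = 0.408 by edgeR).

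TGFB1 was at 32.8, 34.9 and 33.3 CPM with UNC0642 in Mel92.1, at the lower end of its DMSO libraries or just under it. Its log2 fold change was -0.17 (95% interval -0.37 to 0.03, adjusted p = 0.571). In MP41 TGFB1 was at 39.1, 35.4 and 42.3 CPM, overlapping DMSO, and the log2 fold change was -0.02 (95% interval -0.23 to 0.18, adjusted p = 0.973). For TGFB3 and the 3 receptor genes the log2 fold changes with UNC0642 ran from -0.13 to 0.22 in Mel92.1 and from -0.19 to 0.10 in MP41. SMAD7 was at 7.29, 6.14 and 5.36 CPM with UNC0642 in Mel92.1, below each of its DMSO libraries, at a log2 fold change of -0.34 that did not pass (95% interval -0.68 to 0.01, adjusted p = 0.504). SMAD2 was above its DMSO libraries in Mel92.1, at 87.7, 83.2 and 86.3 CPM, and its log2 fold change of 0.14 did not pass either (adjusted p = 0.535). The library with UNC0642 replicate 1 in Mel92.1 had the fewest counts and the highest share on ribosomal RNA genes of all 18, so the comparison was also run without it. Then 0 of 10 members were called, 2 of 10 log2 fold changes were above 0 against 5 with it, and their median was -0.12 against -0.05. With library sizes counted without the ribosomal RNA genes 0 were called too, and 2 of 10 were above 0. The sign of TGFB3 changed in 3, that of TGFBR1 in 5 and that of TGFBR3 in 7 of 23 alternatives, so no direction is read for these genes with UNC0642 in Mel92.1.

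A366 also called none of the 10 genes in Mel92.1, where 0.213% of all 14528 genes passed. The member with an unadjusted p under 0.05 was TGFB1. Its level was 32.0, 31.2 and 33.4 CPM in replicates 1 to 3 with A366, below each DMSO library. The log2 fold change was -0.23 (95% interval -0.43 to -0.03, adjusted p = 0.955 by edgeR). DESeq2 called 0 members as well, and limma voom called 1. Over all genes limma voom called 3087 of 14528 there, against 31 by edgeR. As labelled, with 2 of the 3 libraries exchanged, the fold change of TGFB1 turned to 0.20, and without the 4 exchanged libraries it was -0.25 (adjusted p = 1.00). TGFB3 was above its DMSO libraries at 2.80, 3.46 and 2.80 CPM, with a log2 fold change of 0.30 and a wide 95% interval from -0.30 to 0.91. TGFBR1 overlapped its DMSO values at 82.9, 85.0 and 71.5 CPM (log2 fold change -0.12, 95% interval -0.35 to 0.11).

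In MP41, A366 was followed by lower levels of 2 receptor genes and by higher levels of an inhibitory SMAD and a ligand gene. TGFBR1 and TGFBR3 fell, SMAD7 and TGFB1 rose, and the other 6 members did not pass. These 4 of 10 members were called where 46.0% of all 14956 genes were called, 22.5% higher and 23.5% lower, so the share of members is near that of all genes. The share of counts on ribosomal RNA genes was higher in the MP41 libraries with A366 (5.93 to 11.0%) than in those with DMSO (3.31 to 5.10%) or UNC0642 (3.55 to 5.14%). With library sizes counted without those genes TGFBR1, TGFBR3 and SMAD7 were still called, at -0.68, -0.68 and 0.45, and TGFB1 was at 0.25 and no longer passed (adjusted p = 0.0501). The summed level of 3 endothelial markers was 2.37 to 3.14 CPM with A366 and 0.369 to 0.584 CPM with DMSO, mostly from VWF, while CDH5 and PECAM1 averaged 0.00577 and 0.243 CPM with A366. The fibroblast markers were at 22.5 to 23.4 CPM with A366 and 27.4 to 30.5 CPM with DMSO, and COL1A2 was at 0 with A366. The summed level of 5 epithelial markers was 0.0805 to 0.190 CPM with A366 and 0.760 to 2.44 CPM with DMSO, where KRT8 averaged 0.0398 and 0.673 CPM and KRT18 0.0317 and 0.496 CPM. The part of these other cell type markers in the results was not tested.

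TGFBR1 was at 253, 258 and 258 CPM with DMSO and at 158, 187 and 143 CPM with A366 in MP41. The highest A366 library, labelled Mel92.1 A366 replicate 2, was well below the lowest DMSO library. The log2 fold change was -0.68 (SE 0.0909, 95% interval -0.88 to -0.49, adjusted p = 3.82e-04). It was -0.75 without the 4 exchanged libraries, which leaves 1 MP41 library with A366 (adjusted p = 1.91e-05), and -1.29 as labelled (adjusted p = 0.0112). TGFBR3 was at 30.5, 28.3 and 28.9 CPM with DMSO and at 19.4, 21.6 and 14.7 CPM with A366, again without overlap. Its log2 fold change was -0.68 (SE 0.127, 95% interval -0.95 to -0.40, adjusted p = 0.00152), -0.63 without the 4 libraries (adjusted p = 0.00159) and -1.26 as labelled (adjusted p = 0.0185). The calls of both receptor genes held in all 9 fits that left out 1 MP41 library. TGFBR2 was at 20.3, 23.6 and 20.9 CPM with DMSO and 18.3, 21.4 and 16.6 CPM with A366. These groups overlapped, and its log2 fold change of -0.22 did not pass (95% interval -0.48 to 0.03, adjusted p = 0.130).

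SMAD7 was at 9.54, 10.1 and 10.8 CPM with DMSO and at 14.3, 13.5 and 14.4 CPM with A366 in MP41. Each A366 library was above each DMSO library, at a log2 fold change of 0.45 (SE 0.134, 95% interval 0.16 to 0.74, adjusted p = 0.0169). Without the 4 exchanged libraries it was 0.45 and did not pass (adjusted p = 0.0897), and as labelled it was -0.01. Its call was also lost without MP41 DMSO replicate 1 (adjusted p = 0.0639) or MP41 A366 replicate 1 (adjusted p = 0.0528). TGFB1 was at 42.2, 38.5 and 37.6 CPM with DMSO and at 45.6, 43.7 and 53.6 CPM with A366. The groups did not overlap but nearly touched, and the library labelled Mel92.1 A366 replicate 3 was the highest. The log2 fold change of TGFB1 was 0.25 (SE 0.0937, 95% interval 0.04 to 0.45, adjusted p = 0.0469), just inside the threshold. It was 0.17 without the 4 exchanged libraries (adjusted p = 0.258) and -0.09 as labelled (adjusted p = 0.628). With the replicate number as a block it was 0.24 (adjusted p = 0.0532), with RLE factors 0.24 (adjusted p = 0.0534), with library size only 0.18 (adjusted p = 0.138) and in a fit of the 6 libraries compared 0.25 (adjusted p = 0.0541). The call was lost in 5 of the 9 fits without 1 library, those without MP41 A366 replicate 1 or 3, MP41 DMSO replicate 2 or 3 or MP41 UNC0642 replicate 1, with an adjusted p of 0.0642 to 0.215.

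The SMAD genes that carry the signal did not pass with A366 in MP41. SMAD2 was at 61.1, 61.5 and 57.5 CPM with A366 against 60.4, 61.7 and 59.2 CPM with DMSO (log2 fold change -0.03, 95% interval -0.18 to 0.11). SMAD4 was at 45.8, 48.6 and 43.5 CPM against 44.9, 43.7 and 48.0 CPM (log2 fold change -0.01, 95% interval -0.17 to 0.15). The libraries of both genes overlapped. SMAD3 was at 23.1, 27.1 and 24.2 CPM with A366, with replicates 1 and 3 below its DMSO values (log2 fold change -0.14, 95% interval -0.37 to 0.09, adjusted p = 0.305). TGFB3 was at 14.8, 14.8 and 14.5 CPM, just below each of its DMSO libraries, at a log2 fold change of -0.14 that did not pass (95% interval -0.36 to 0.09, adjusted p = 0.298). TGFB2 was at 0.554, 0.362 and 0.409 CPM with A366 against 0.108, 0.418 and 0.0435 CPM with DMSO, groups that overlapped through DMSO replicate 2. Its log2 fold change of 1.202 did not pass (95% interval -0.24 to 2.65, adjusted p = 0.157), but was called without that library, at 2.48 (adjusted p = 0.0168), and with limma voom, at 2.25 (adjusted p = 0.00114). TGFBR2 and SMAD3 were also called with limma voom, at -0.24 (adjusted p = 0.00396) and -0.24 (adjusted p = 0.00195). Over all genes limma voom called 10248 of 14956 there, against 6884 by edgeR.

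**Figure D3:**
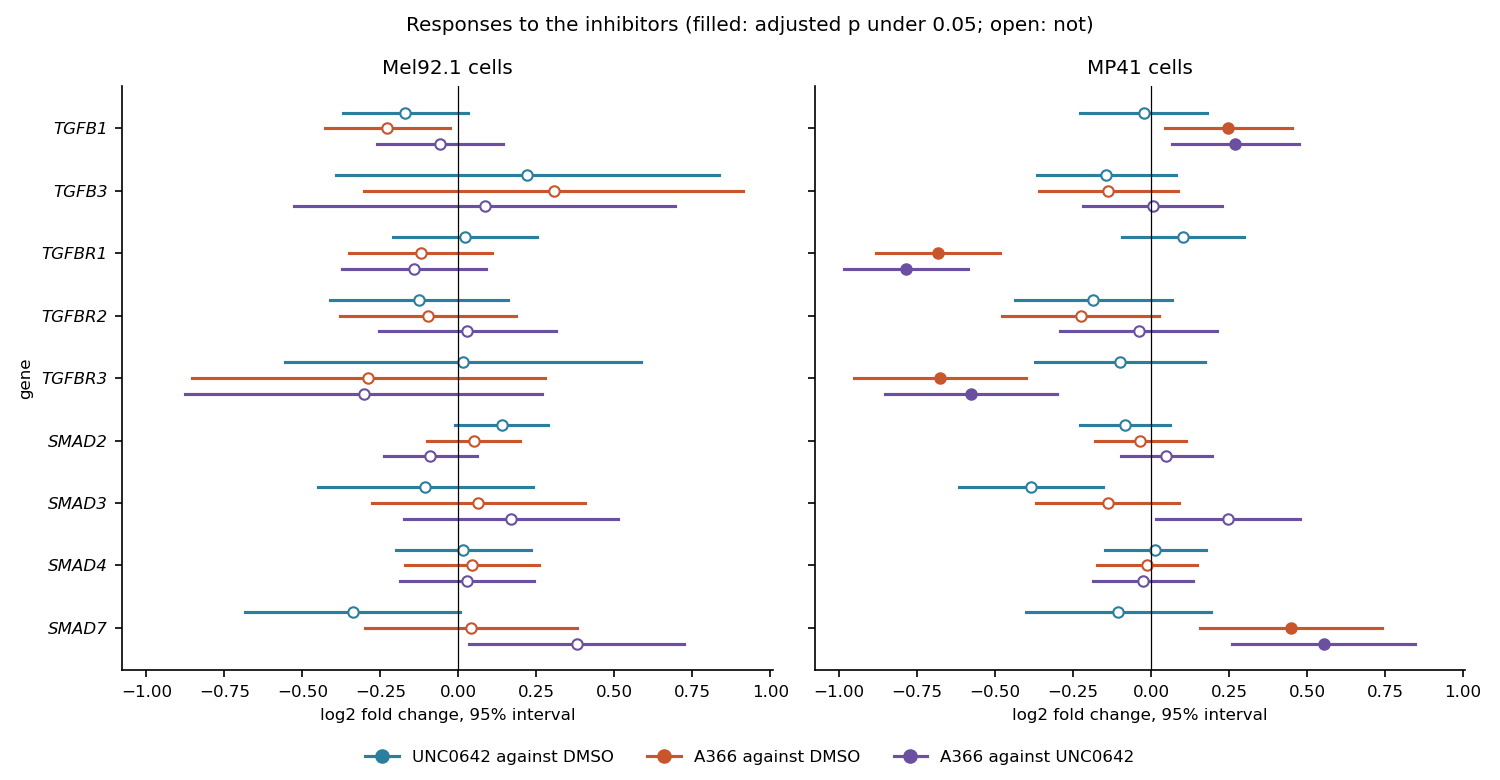
Log2 fold changes (x axes) of 9 members in Mel92.1 (left) and MP41 (right) for UNC0642 against DMSO, A366 against DMSO and A366 against UNC0642, with 95% intervals, filled where the adjusted p was under 0.05, and without TGFB2 because of its low counts. The filled points are all in MP41 with A366, TGFBR1 at -0.68 and TGFBR3 at -0.68 against DMSO on the left of 0 and SMAD7 at 0.45 and TGFB1 at 0.25 on the right, with the same 4 genes filled against UNC0642.

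Fold changes with A366 in MP41 ran with the length and GC content of genes over the whole table. Over 14453 genes with an annotated transcript, Spearman's rho of the log2 fold change was -0.473 with length and 0.460 with GC content, against 0.0177 and -0.232 over 14096 genes for A366 in Mel92.1. These correlations are across genes of the same libraries and are a description. With the genes cut into 10 bins of equal size by length, the longest bin had a median log2 fold change of -0.39 and the shortest bin 0.38. TGFBR1 has a longest transcript of 6.52 kb with 39.0% GC, and TGFBR3 one of 6.46 kb with 43.8% GC. In the bin by length that holds both, the median log2 fold change was -0.27 and the lower quartile -0.48, and both receptor genes lay below that quartile. SMAD7, at 4.43 kb and 58.7% GC, lay above the upper quartile of its length bin (0.18) but not above that of its GC bin (0.48). TGFB1, at 2.77 kb and 63.5% GC, lay between the quartiles of its length bin (-0.12 and 0.36) and of its GC bin (0.11 and 0.57).

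The fit was then repeated with an offset built from GC content and length. TGFBR1 stayed called at -0.28 (adjusted p = 8.53e-04), TGFBR3 at -0.37 (adjusted p = 0.00594) and SMAD7 at 0.33 (adjusted p = 0.0463). With the replicate number as a block beside the offset SMAD7 no longer passed (adjusted p = 0.0616). TGFB1 changed sign to -0.08 and did not pass (adjusted p = 0.409). SMAD2 and SMAD4, which did not pass without the offset, were called at 0.58 (adjusted p = 3.78e-04) and 0.45 (adjusted p = 4.11e-04). The offset takes the longest annotated transcript as the length. For SMAD2 that is 34.5 kb, longer than in nearly all genes, against a median transcript of 0.935 kb. The values of SMAD2 with the offset, here and below, rest on that length. The size of the change of TGFBR1 and TGFBR3 and the direction of TGFB1, SMAD2 and SMAD4 thus depended on this choice.

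**Figure D4:**
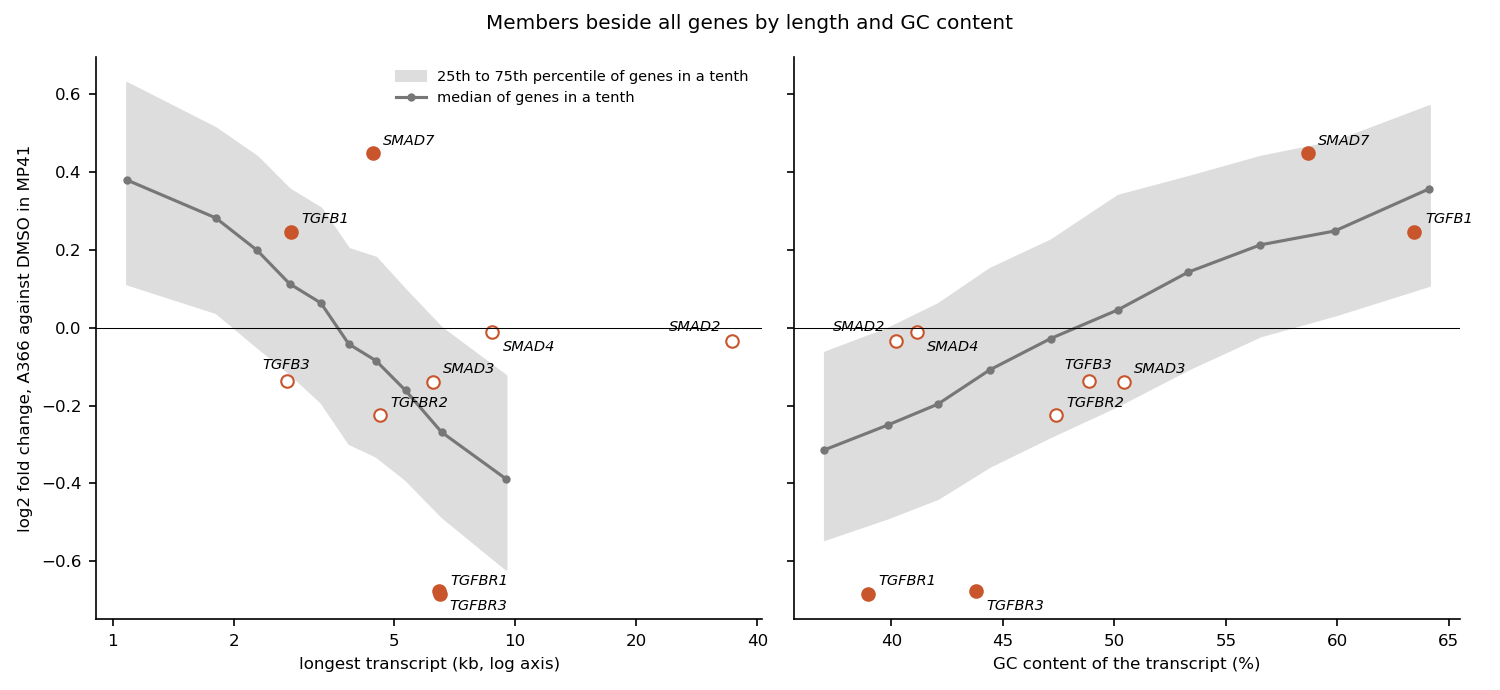
Log2 fold change with A366 against DMSO in MP41 (y axis) against the longest transcript in kb (left, log axis) and against GC content in percent (right), with the median and the quartiles of all genes in 10 bins in grey and 9 members as points, filled where the adjusted p was under 0.05. TGFBR1 and TGFBR3 at -0.68 lie under the grey band in both panels, and TGFB1 at 0.25 lies within it.

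The 4 genes called with A366 in MP41 sit on separate chromosomes of GRCh38, by GENCODE release 29. TGFB1 spans chr19:41301587-41353911 on the minus strand and overlaps CCDC97, HNRNPUL1 and TMEM91 on the other strand. TGFBR1 spans chr9:99104038-99154192 on the plus strand, TGFBR3 chr1:91680343-91906335 on the minus strand and SMAD7 chr18:48919853-48952052 on the minus strand. None of these last genes overlaps another gene of the table. How strand entered the counting is not given in the sources used here, so reads of TGFB1 and of its partners on the other strand may not be separated. The counts of TGFB2 and SMAD2 were not whole in 11 and 7 of the 18 libraries, as they are where reads are shared out between genes.

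The 250 bases before a start of each of these 4 genes are shown because these are the members that moved, in opposite directions, in the same libraries. They are RefSeq sequences of GRCh38.p14, read 5′ to 3′ on the strand of the gene, from chr19:41353923-41354172 (minus) for TGFB1, chr9:99104863-99105112 (plus) for TGFBR1, chr1:91886152-91886401 (minus) for TGFBR3 and chr18:48950966-48951215 (minus) for SMAD7. Where RefSeq lists several starts (8 for TGFBR1 and 3 for SMAD7), the first listed was taken, and the windows of TGFBR1, TGFBR3 and SMAD7 lie inside the wider GENCODE spans. Capitals mark each match to GGGCGG, the GC box bound by SP1, and to CAGAC, the short box bound by SMAD proteins, on either strand.
TGFB1: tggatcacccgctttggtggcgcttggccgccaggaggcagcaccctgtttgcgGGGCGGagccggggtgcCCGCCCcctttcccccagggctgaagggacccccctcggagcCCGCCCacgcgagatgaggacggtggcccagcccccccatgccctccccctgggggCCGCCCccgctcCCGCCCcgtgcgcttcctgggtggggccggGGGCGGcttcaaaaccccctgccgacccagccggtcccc
TGFBR1: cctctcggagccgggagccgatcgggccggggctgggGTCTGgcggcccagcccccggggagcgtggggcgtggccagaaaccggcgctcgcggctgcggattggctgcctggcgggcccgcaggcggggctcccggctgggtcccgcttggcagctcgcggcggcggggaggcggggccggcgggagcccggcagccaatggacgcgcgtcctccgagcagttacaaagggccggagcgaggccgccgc
TGFBR3: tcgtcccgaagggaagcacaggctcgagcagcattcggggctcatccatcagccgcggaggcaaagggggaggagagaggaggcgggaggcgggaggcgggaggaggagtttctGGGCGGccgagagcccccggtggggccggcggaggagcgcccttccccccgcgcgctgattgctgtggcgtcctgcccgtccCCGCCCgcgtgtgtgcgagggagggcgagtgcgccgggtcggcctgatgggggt
SMAD7: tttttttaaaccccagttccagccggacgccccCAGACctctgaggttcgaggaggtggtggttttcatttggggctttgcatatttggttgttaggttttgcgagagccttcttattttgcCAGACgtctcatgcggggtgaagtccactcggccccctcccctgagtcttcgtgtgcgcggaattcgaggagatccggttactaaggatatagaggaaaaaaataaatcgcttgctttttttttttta

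TGFB1 holds 6 GC boxes and no CAGAC, TGFBR3 holds 2 GC boxes and no CAGAC, TGFBR1 holds 1 CAGAC and no GC box, and SMAD7 holds 2 CAGAC and no GC box. These counts hold for the start shown only. Of the 8 listed windows of TGFBR1, 4 hold a GC box and 4 a CAGAC, and of the 3 of SMAD7, 0 hold a GC box and 2 a CAGAC. A GC box is found in 42.6% and CAGAC in 38% of 35116 promoters of the same length, so a single match is common. The full SMAD palindrome GTCTAGAC (0.182% of promoters), the AP-1 motif TGANTCA (6.57%) and the E-box CACGTG (6.34%) were searched on both strands as well, and none of these 4 windows holds them. GC content of the windows was 76.8% in TGFB1, 79.6% in TGFBR1, 73.6% in TGFBR3 and 48.0% in SMAD7. These matches describe the letters only.

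The pair of inhibitors was compared directly in each line at the same dose and time. Both inhibit EHMT2, and the study states that both can inhibit EHMT1 as well. The comparison asks whether the members answered the inhibitors differently. Over 10 members and 2 lines 20 differences were tested, each adjusted with all other genes of the line. In Mel92.1 0 of 10 members differed, with 1 at an unadjusted p under 0.05 and 0 by DESeq2, where 0.165% of genes passed. The 95% intervals there leave room for a log2 difference in TGFBR1 of -0.37 to 0.09, in TGFB1 of -0.26 to 0.14 and in TGFBR3 of -0.88 to 0.27. SMAD7 was at 8.39, 7.80 and 7.99 CPM with A366 and at 7.29, 6.14 and 5.36 CPM with UNC0642, without overlap, at a log2 difference of 0.38 that did not pass (95% interval 0.03 to 0.72, adjusted p = 0.668).

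In MP41 4 of 10 members differed between the inhibitors, TGFBR1, TGFBR3, SMAD7 and TGFB1. This comparison shares its A366 libraries with that against DMSO, and 43.1% of all genes passed, 21.1% higher and 22.0% lower with A366. TGFBR1 was at 254, 289 and 286 CPM with UNC0642, above each library with A366, and the log2 difference, A366 minus UNC0642, was -0.78 (95% interval -0.98 to -0.59, adjusted p = 1.45e-04). For TGFBR3, at 29.9, 24.2 and 28.2 CPM with UNC0642, it was -0.58 (95% interval -0.85 to -0.30, adjusted p = 0.00363). SMAD7, at 11.0, 7.26 and 10.1 CPM with UNC0642, differed by 0.55 (95% interval 0.26 to 0.85, adjusted p = 0.00624). TGFB1 with UNC0642 overlapped its DMSO libraries but not those with A366, and the difference was 0.27 (95% interval 0.07 to 0.47, adjusted p = 0.0341). Without the 4 exchanged libraries TGFBR1, TGFBR3 and SMAD7 stayed called at -0.85, -0.53 and 0.55, and TGFB1 was at 0.19 (adjusted p = 0.199). As labelled TGFBR1 and TGFBR3 alone were called, where 4670 of 15088 genes were called. With the GC and length offset 5164 of 14453 genes were called. TGFB1 was then at -0.02 and 6 members were called, among them TGFBR1, TGFBR3 and SMAD7. Newly called were SMAD2 at 0.63 (adjusted p = 1.59e-04), SMAD3 at 0.38 (adjusted p = 0.00489) and SMAD4 at 0.41 (adjusted p = 6.00e-04). With library size only the call of TGFB1 was lost (adjusted p = 0.109), and without MP41 A366 replicate 1 or 3 or MP41 UNC0642 replicate 1 or 2 it was lost as well (adjusted p of 0.0538 to 0.163). SMAD3 was higher in each A366 library than in each UNC0642 library, at a log2 difference of 0.25 that did not pass (95% interval 0.02 to 0.48, adjusted p = 0.0787). Without the offset TGFBR2, TGFB3, SMAD2 and SMAD4 did not pass, with 95% intervals of -0.29 to 0.21, -0.22 to 0.23, -0.10 to 0.19 and -0.19 to 0.13.

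Whether the response to A366 differed between the lines was tested as an interaction in 1 fit of all 18 libraries. TGFB1 and TGFBR1 passed, in opposite directions. The response of TGFB1 was lower in Mel92.1 than in MP41 (log2 difference -0.50, SE 0.132, adjusted p = 0.0213), its level being below DMSO in Mel92.1 and above it in MP41. The response of TGFBR1 was higher in Mel92.1 (log2 difference 0.54, SE 0.142, adjusted p = 0.0224). Over all genes 13.8% passed, 5.13% higher and 8.67% lower in Mel92.1. Without the 4 exchanged libraries, which leaves 1 A366 library in each line, TGFB1 was at -0.44 and TGFBR1 at 0.64. As labelled TGFB1 turned to 0.29 and TGFBR1 was at 1.96. With the GC and length offset, where 1017 of 15235 genes were called, the values were -0.06 (adjusted p = 0.828) and 0.17 (adjusted p = 0.250). There 2 other members were called instead, SMAD2 at -0.68 (adjusted p = 0.0341) and SMAD4 at -0.39 (adjusted p = 0.0278). Leaving out 1 library ended the call of TGFB1 in 6 and that of TGFBR1 in 7 of 18 fits (adjusted p up to 0.0855 and 0.0681). Mel92.1 DMSO replicates 2 and 3, Mel92.1 A366 replicates 1 and 2, MP41 DMSO replicate 3 and MP41 A366 replicate 3 each ended both, and MP41 A366 replicate 1 ended that of TGFBR1. For TGFBR3 the difference was 0.36 (95% interval -0.26 to 0.98) and for SMAD7 -0.44 (95% interval -0.87 to 0.00), and neither passed by edgeR. With limma voom both were called, as were TGFB2 and SMAD3 (adjusted p of 6.78e-04 for TGFBR3 and 9.39e-04 for SMAD7). Over all genes limma voom called 9276 of 15799 in this comparison, against 2179 by edgeR.

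Beyond the 10 members, 5 lists of pathway genes were examined, chosen with earlier results of these data known, and their counts are a description. In MP41 with A366, more genes were called lower than higher among the brakes, the other receptors and the other SMADs, and more were called higher than lower among the response genes, where 23.5% of all genes were lower and 22.5% higher. Of 13 brakes, which restrain the pathway, 7 were lower and 2 higher, with a median log2 fold change of -0.22 against 0.02 over all genes. PMEPA1, which sequesters receptor-regulated SMADs, was at -0.87 (adjusted p = 0.0353), LEMD3 at -0.53 (adjusted p = 0.00234) and SKIL, a SMAD co-repressor, at -0.43 (adjusted p = 0.00549). PMEPA1 was scarce, at 0.901 ± 0.373 CPM with A366 and 1.63 ± 0.224 CPM with DMSO (SD, n = 3).

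Of 10 other receptors of the family, 4 were lower and 1 higher, with a median of -0.22. BMPR1A and BMPR1B, receptors of bone morphogenetic proteins, were at -0.46 and -0.44 (adjusted p = 0.00391 and 0.00956), and ACVRL1, a type I receptor best known in endothelium, was at 0.72 (adjusted p = 0.0338), from 1.19 ± 0.288 CPM with DMSO to 2.01 ± 0.269 CPM with A366 (SD, n = 3). Of 6 other SMADs and adaptors, 4 were lower and 1 higher, with a median of -0.37. SMAD5 was at -0.63 (adjusted p = 0.00161) and ZFYVE9, the anchor that presents SMAD2 and SMAD3 to the receptor, at -0.57 (adjusted p = 0.00221). SMAD6, an inhibitory SMAD like SMAD7, was at 0.54 (adjusted p = 0.00125), so the genes of both inhibitory SMADs rose.

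Of 9 genes tested for latency and activation of ligands, 2 were lower and 2 higher, with a median of -0.03. The binding protein gene LTBP4 was at 0.44 (adjusted p = 0.00229), and the activators THBS1 and ITGAV were at -0.88 (adjusted p = 0.0276) and -0.85 (adjusted p = 6.83e-04). Of 14 response genes, 2 were lower and 6 higher, with a median of 0.24. ID3 was at 0.91 (adjusted p = 2.97e-04), ID1 at 0.71 (adjusted p = 7.77e-04) and BHLHE40 at -0.59 (adjusted p = 1.92e-04). ID1 and ID3 are best known as targets of bone morphogenetic proteins. TGFBI and FN1, targets of TGF-β itself, did not pass, while CTGF of the same list was higher with A366 than with DMSO. Which signal these genes answered to was not tested. With the GC and length offset the calls were 5 lower and 3 higher among the brakes, 1 lower and 1 higher among the other receptors, 2 lower and 1 higher among the other SMADs, 2 lower and 2 higher in latency and 2 lower and 4 higher among the response genes, and the medians lay at -0.01, 0.12, -0.04, -0.08 and 0.13. Over all genes 2712 of 14453 were called lower and 2442 higher with the offset, and the median was -0.01. The excess of lower calls among the other receptors was not seen with the offset. For the brakes and the other SMADs the medians moved to -0.01 and -0.04, from -0.22 and -0.37 without it. As labelled 2029 of 15088 genes were called lower and 2922 higher. The calls there were 4 lower and 2 higher among the brakes, 3 lower and 0 higher among the other receptors and 3 lower and 0 higher among the other SMADs. They were 1 lower and 2 higher in latency and 2 lower and 3 higher among the response genes. Without the 4 exchanged libraries 1 MP41 library with A366 is left, and counts are not given.

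**Figure D5:**
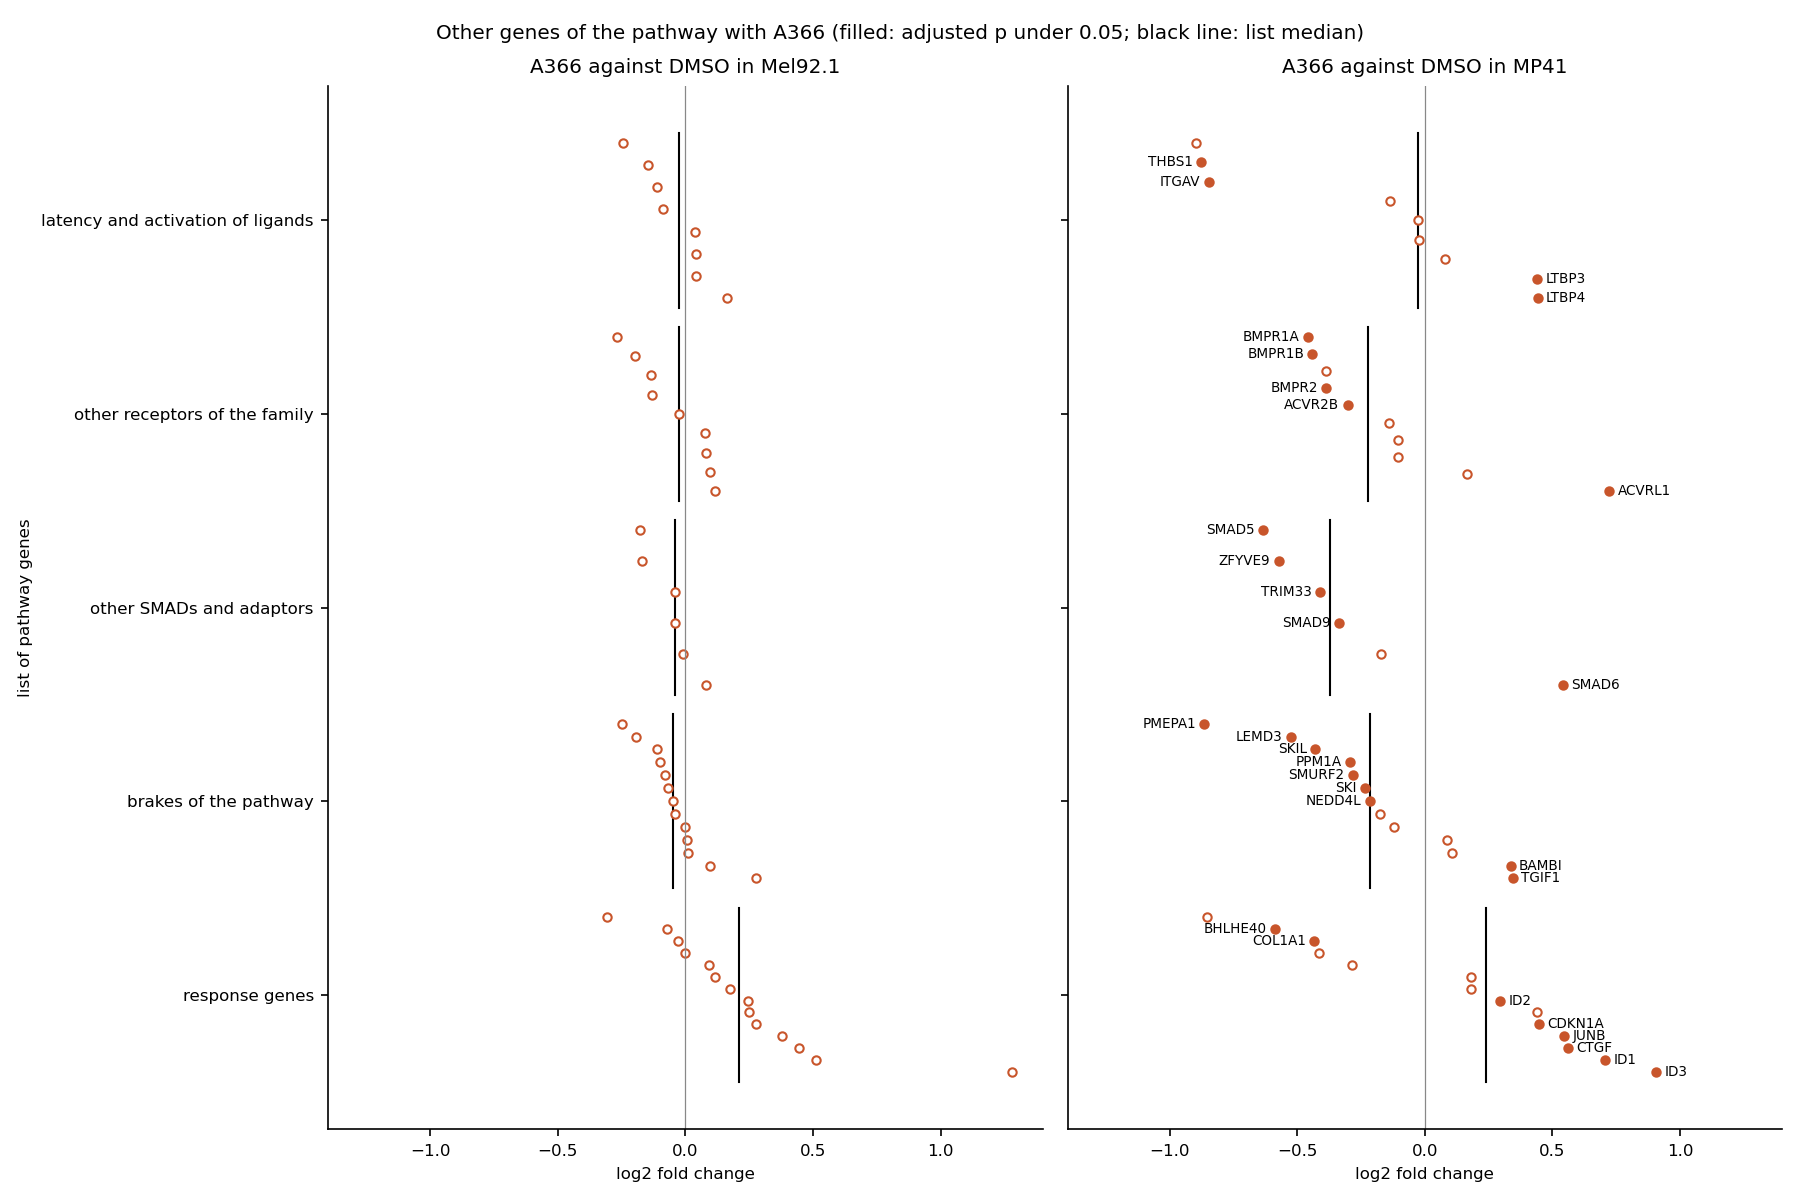
Log2 fold changes with A366 against DMSO (x axes) of the genes of 5 pathway lists in Mel92.1 (left) and MP41 (right), 1 point a gene, filled and named where the adjusted p was under 0.05, with the median of each list as a black line. Without the offset no point is filled in Mel92.1, and in MP41 the medians of other receptors, other SMADs and brakes lie at -0.22, -0.37 and -0.22 and that of response genes at 0.24.

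In the other treated groups almost none of these genes passed. In Mel92.1, UNC0642, A366 and the comparison of both called 0 genes in each of the 5 lists. Over all genes 0.688%, 0.213% and 0.165% passed in these comparisons, so 0 is near the share of the whole table. With the GC and length offset A366 there called 1 response gene, where 58 of 14096 genes were called. The comparison of both inhibitors with the offset called 1 brake and 1 response gene, where 101 of 14096 were called. UNC0642 in MP41 called 1, where 0.241% of all genes passed. It was the response gene CTGF, which codes for a matrix protein, at -0.63 (adjusted p = 0.0307). CTGF was at 12.8 ± 1.31 CPM with DMSO, 8.25 ± 0.762 CPM with UNC0642 and 19.1 ± 0.539 CPM with A366 in MP41 (SD, n = 3), below DMSO with UNC0642 and above it with A366. The log2 difference between the inhibitors was 1.19 (95% interval 0.97 to 1.42, adjusted p = 2.29e-05). The response to A366 differed between the lines for 4 of 14 response genes, with ID3 at -0.84 (adjusted p = 0.00532), for SKIL at 0.68 (adjusted p = 0.0305) and BAMBI at -0.61 (adjusted p = 0.00242) of the brakes, for LTBP4 and ITGAV of the latency genes, for SMAD6 of the other SMADs, and for 0 of the other receptors, where 13.8% of all genes passed. With the GC and length offset 1017 of 15235 genes were called over the whole table. Of the response genes 2 of 14 were called there, of the brakes 1, and of the latency genes, the other SMADs and the other receptors 0. As labelled 7801 of 15799 genes were called. The calls there were 7 response genes, 10 brakes, 6 latency genes, 4 other SMADs and 7 other receptors, so these counts moved with those over all genes. Without the 4 exchanged libraries 1 A366 library is left in each line, and counts are not given.

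The lines differed with DMSO in the rest of the pathway too. Of the latency genes 7 of 9 were called, of the other receptors 7 of 10, of the other SMADs 4 of 6, of the brakes 11 of 13 and of the response genes 10 of 14, where 69.4% of all genes were called. LTBP1, which stores latent TGF-β in the matrix, was at 2.79 ± 0.476 CPM in Mel92.1 and 24.3 ± 2.00 CPM in MP41 (SD, n = 3, log2 difference -3.12, adjusted p = 1.45e-09). BMPR1B was at 1.64 ± 0.0559 and 15.9 ± 1.42 CPM (SD, n = 3, log2 difference -3.28, adjusted p = 1.87e-07). SKIL at -1.86 and SMURF1 at -1.66 were lower in Mel92.1, and TGIF2 at 1.57 and LTBP4 at 1.54 were higher. Of the other SMADs and adaptors 4 were lower and 0 higher in Mel92.1, led by TRIM33, a partner of SMAD2 and SMAD3, at -1.58 (adjusted p = 6.09e-12).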

How the data were processed

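RNA sequencing was done on 18 libraries of 2 human uveal melanoma lines, 3 for each line and treatment. The deposited table holds expected counts per gene symbol, which the authors made from reads aligned to hg38 with Bowtie2 2.1.0 and RSEM 1.2.15, according to the submitters' processing notes. The study's methods text names another build and pipeline (FPKM values), which was not used here. The libraries were made from RNA selected with oligo-dT beads and kept strand, and how strand entered the counting is not given in the sources used here. All 18 library columns were used, and 5.85% to 13.4% of values per library were not whole.

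Expected counts were rounded to whole numbers. Genes were filtered with filterByExpr, scaled with TMM factors and tested with edgeR 4.0.16 (quasi-likelihood test) in R 4.3.3, with Benjamini-Hochberg adjustment over all genes and a threshold of 0.05. Inhibitors were compared within a line in a fit of its 9 libraries, and lines and responses in 1 fit of 18. Intervals cover 95%. The replicate numbers did not pair the samples (same-number correlations of -0.50 to 0.60 in Mel92.1 and -0.20 to 0.25 in MP41), so no block was used. Samples were grouped by their labels except for the 4 exchanged libraries. The coefficient of variation estimated by edgeR was 0.175 in Mel92.1 and 0.109 in MP41, against 0.401 and 0.365 as labelled. No pair of libraries of the same group agreed within sampling noise. The fits were tested on simulated data.

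The 10 members and the pathway lists were chosen with earlier results of these data known. Of the lists, up to 3 genes per list and comparison are named, those called with the largest fold change and a mean of at least 1 CPM in a group. TGFBI and FN1, given as not passing, and CTGF, set beside them, fall outside this rule there and were named after their values were seen. Transcript length and GC content came from GENCODE 29 for 23899 symbols by name and 717 by a RefSeq synonym, with 1859 not found, and promoters from RefSeq. Alternatives were the libraries as labelled, the 4 left out, DESeq2 1.42.0, limma 3.58.1 (voom), RLE factors, library size only, other filters, other sets of libraries in the fit, the replicate block, an offset for GC content and length, leaving out each library, and, chosen after seeing the data, library sizes without ribosomal RNA genes. Protein sequences were not used here.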

Additional observations from a re-analysis of the deposited data

Results flagged for a closer look

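The response to A366 differed between the lines by a test of the difference itself for 2 members. TGFB1 responded lower in Mel92.1 than in MP41, at a log2 difference of -0.50 (SE 0.132, adjusted p = 0.0213 by edgeR). TGFBR1 responded higher in Mel92.1, at 0.54 (SE 0.142, adjusted p = 0.0224). Both values rest in part on the 4 libraries that go against their labels. Neither was called with the GC and length offset. Leaving out 1 library ended the call of TGFB1 in 6 and that of TGFBR1 in 7 of 18 fits.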

How the results depend on the processing

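Single member results called under at least 1 setting were counted, and those called under no setting were not. Of the former, 385 of 460 values under other settings kept their direction and their side of the threshold, and 29 were reversed. With 1 library left out 454 of 504 kept them, and 9 were reversed. TGFBR1 and TGFBR3 with A366 in MP41 were called under every setting run. Members called with A366 in MP41 numbered 4, against 2 as labelled, 2 without the 4 exchanged libraries, 7 with limma voom and 2 to 5 with 1 library left out. They numbered 3 each with RLE factors, library size only, library sizes without ribosomal RNA genes and the 6 libraries compared, where the call of TGFB1 was lost, 5 with the GC and length offset and 4 with the offset and replicate block, where that of SMAD7 was lost. A366 against UNC0642 in MP41 called 4, against 2 as labelled, 3 without the 4 libraries, 3 with library size only, 6 with the offset, 5 with limma voom and 3 to 4 with 1 library left out. The lines with DMSO differed for 8, against 6 as labelled, 7 without the 4 libraries, 10 with the offset, 9 with limma voom and 6 to 9 with 1 library left out. Between the lines the A366 response differed for 2, against 6 as labelled, 0 with library size only, 1 with the GC and length offset and replicate block, 6 with limma voom and 0 to 2 with 1 library left out. A366 in Mel92.1 called 0 and, with limma voom, 1. The calls over all genes moved as well. With A366 in MP41 they were 6884 of 14956, 4951 of 15088 as labelled, 5154 of 14453 with the offset and 10248 with limma voom. Against UNC0642 there they were 6450, 4670 as labelled, 5164 of 14453 with the offset and 9159 with limma voom. Between the lines they were 10962 of 15799, 8734 as labelled and 13140 with limma voom. In the A366 response difference they were 2179 of 15799, 7801 as labelled, 482 with library size only, 1017 of 15235 with the offset and 9276 with limma voom. The replicate block called 3 members with A366 in MP41, where TGFB1 was at 0.24, and without the offset changed no other count.

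The reversals named first are of results called under at least 1 setting. Reversed as labelled were, with A366 against DMSO, TGFB1 in Mel92.1 (0.20) and, in MP41, TGFB1 (-0.0938), SMAD2 (0.29), SMAD4 (0.46) and SMAD7 (-0.0128). Against UNC0642 in MP41 these were TGFB1 (-0.0706), SMAD3 (-0.59) and SMAD4 (0.45), and in the response difference TGFB1 (0.29), SMAD2 (-0.48), SMAD4 (-0.77) and SMAD7 (0.64). The GC and length offset, without and with the replicate block, reversed TGFB1 (-0.0818 and -0.0812), SMAD2 (0.58 and 0.57) and SMAD4 (0.45 and 0.45) with A366 in MP41, TGFB1 (-0.0227 and -0.0211) and SMAD4 (0.41 and 0.41) against UNC0642, and SMAD2 (-0.68 and -0.68) and SMAD4 (-0.39 and -0.39) in the response difference. Other reversals of these results were near 0. SMAD4 with A366 in MP41 was at 0.0122 in the fit of 18 libraries, SMAD2 against UNC0642 at -0.0196 with library size only and TGFB1 between the lines at 0.00492 with voom. With 1 library left out SMAD4 ran from -0.0576 to 0.0268 with A366 in MP41, -0.0716 to 0.00377 against UNC0642 and -0.0149 to 0.0839 in the response difference, and TGFB1 from -0.0920 to 0.0351 between the lines. Some results called under no setting changed sign as well, and more widely. With A366 in Mel92.1 TGFBR1 ran from -0.18 to 0.68 and TGFBR3 from -0.38 to 0.50 over all settings. TGFB3 against UNC0642 in MP41 ran from -1.04 to 0.09. Apart from the exchanged labels, the cause of the reversals was not tested. With 3 libraries a group, the call of TGFB2, which had at most 44 counts, turned on single libraries, and its level is uncertain at this depth.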
